A study of Homo sapiens with 8 samples.

Results

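Genes of the G2 phase and of mitosis were followed across the SW480 and SW620 colorectal adenocarcinoma lines, each cultured with and without caffeine. The set held 48 of the 62649 genes counted in every library, sorted into 10 roles. The genes were picked by function, as mitotic cyclins, kinases, kinesins, spindle checkpoint, centromere and related genes, with earlier results of these data known. In SW620, 39 of the 48 transcripts rose with caffeine and 0 fell, where 8.10% of all genes tested rose and 6.25% fell. In SW480 0 of the 48 passed the same test, near the 3.60% of all genes that did. There 38 of the 48 changes were above 0, against 8784 of the 17671 genes tested. The response was called larger in SW620 than in SW480 for 13 of the 48, where 4.24% of all genes were. In the controls 37 of the 48 were lower in SW620 than in SW480, where 32.6% of all genes were.

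Entry into mitosis is driven by CDK1 bound to cyclin B, switched on by the CDC25 phosphatases and reinforced by the kinases PLK1 and Aurora A. Kinesin motors and the microtubule proteins around them build the spindle, kinetochores attach it to centromeres, and the spindle checkpoint holds anaphase back until attachment is complete, when CDC20 activates the anaphase-promoting complex (APC/C) and cyclin B and securin are destroyed. Transcripts of these genes accumulate late in the cycle, through the factors FOXM1 and B-MYB with the MuvB complex, which binds the cell cycle genes homology region (CHR) of their promoters, and through NF-Y, which binds CCAAT boxes. In proliferating intestinal crypts and in colorectal tumours these transcripts mark dividing cells.

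The 4 groups had 2 libraries each, namely SW620 with caffeine, SW620 control, SW480 with caffeine and SW480 control. SW480 was derived from a primary colon tumour and SW620 from a lymph node metastasis of the same patient. Both lines carried B8-mCherry, a fluorescent fusion of the immunoproteasome subunit PSMB8, in the control groups as well. The labels give caffeine doses and times for SW620 cultures but not for the sequenced libraries, and speak of biological replicates without saying how they were separated, so the p-values measure the spread between these libraries.

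Assigned reads per library numbered 15760259 to 23269315, and a count of 0 allows for up to 3 counts (95%, counting error alone), which equalled 0.129 to 0.190 CPM (read counts scaled to library size). The share of mitochondrial reads was 1.63% in SW480 caffeine replicate 2, against 4.38% to 6.16% in the other 7 libraries. Replicates of each group differed by more than the sampling noise of their counts, most in SW480. Chi-square per degree of freedom, a measure of this excess, was 41.8 in SW480 caffeine and 21.1 in SW480 control. It was 10.6 in SW620 caffeine and 2.96 in SW620 control. All 4 groups shared 1 estimate of the spread in the test. Of 10 colon epithelium markers 9 were detected in at least 1 library. Their summed level was 12900 to 14300 CPM in SW620 caffeine and 10900 CPM in both SW620 control libraries. It was 6480 to 6970 CPM in SW480 caffeine and 4660 to 5880 CPM in SW480 control. KRT8 and KRT18 had the highest levels of these markers in every library. CDX1 stood at 0 in every library. In SW480 CDH1 (E-cadherin) stood at 0.127 to 0.913 CPM and KRT20 at 0 to 0.043 CPM. Leukocyte markers summed to 1.92 to 4.33 CPM. Fibroblast markers summed to 38.1 to 48.5 CPM in SW620 and 5.52 to 7.48 CPM in SW480, and endothelial markers to 9.62 to 15.5 CPM in SW620 and 1.33 to 2.05 CPM in SW480. In SW620 LUM stood at 28.9 to 33.7 CPM, COL1A1 at 5.82 to 15 CPM and PECAM1 at 6.28 to 10.1 CPM. LUM stood at 0 in SW480, and PTPRC, DCN and KDR at 0 in 7 of 8 libraries each. The part of these markers in the differences between the lines was not tested.

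Promoters of these genes are shown first, because the CHR and CCAAT letters are what most of them share apart from function. The windows are RefSeq promoters on GRCh38.p14, from 250 bases before to 50 bases after each annotated start, and 41 of the 48 genes matched, with 48 windows in all, since a few genes have several starts whose windows can share bases. Printed are CCNB1, the cyclin B1 gene, and 5 genes with large changes in SW620, 5′ to 3′ on the strand of the gene, with capitals marking the CHR and the CCAAT box in either orientation. The CHR was searched as its main form TTTGAA and as its variants, which are spelled TTTAAA in some promoters and in others TTCGAA. CCNB1 lies at chr5:69166900-69167199 on the plus strand, CDC25C at chr5:138331755-138332054 on the minus strand, BUB1 at chr2:110678014-110678313 on the minus strand, KIF20A at chr5:138178862-138179161 on the plus strand, DLGAP5 at chr14:55191536-55191835 on the minus strand and ANLN at chr7:36389612-36389911 on the plus strand.
CCNB1: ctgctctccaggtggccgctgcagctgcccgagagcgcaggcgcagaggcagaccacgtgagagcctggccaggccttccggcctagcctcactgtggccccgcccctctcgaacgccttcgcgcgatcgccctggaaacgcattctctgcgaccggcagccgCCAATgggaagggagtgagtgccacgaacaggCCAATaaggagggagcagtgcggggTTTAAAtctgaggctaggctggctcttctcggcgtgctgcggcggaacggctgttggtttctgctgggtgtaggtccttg
CDC25C: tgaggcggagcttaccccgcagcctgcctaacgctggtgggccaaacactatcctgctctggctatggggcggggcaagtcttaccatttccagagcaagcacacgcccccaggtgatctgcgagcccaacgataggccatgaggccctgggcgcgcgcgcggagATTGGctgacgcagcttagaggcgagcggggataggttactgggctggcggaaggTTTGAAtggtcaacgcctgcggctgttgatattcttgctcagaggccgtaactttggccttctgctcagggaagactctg
BUB1: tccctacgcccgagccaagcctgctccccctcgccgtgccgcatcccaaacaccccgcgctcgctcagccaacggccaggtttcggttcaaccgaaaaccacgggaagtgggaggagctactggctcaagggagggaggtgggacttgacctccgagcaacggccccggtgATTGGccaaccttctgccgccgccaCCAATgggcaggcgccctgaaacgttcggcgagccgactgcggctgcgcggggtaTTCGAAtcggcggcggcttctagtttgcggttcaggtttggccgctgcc
KIF20A: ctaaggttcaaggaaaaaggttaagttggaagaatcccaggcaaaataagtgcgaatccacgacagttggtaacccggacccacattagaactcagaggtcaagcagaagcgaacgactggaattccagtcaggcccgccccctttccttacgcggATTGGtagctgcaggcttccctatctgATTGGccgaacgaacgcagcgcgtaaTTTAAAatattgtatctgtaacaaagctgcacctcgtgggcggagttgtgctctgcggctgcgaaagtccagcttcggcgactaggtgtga
DLGAP5: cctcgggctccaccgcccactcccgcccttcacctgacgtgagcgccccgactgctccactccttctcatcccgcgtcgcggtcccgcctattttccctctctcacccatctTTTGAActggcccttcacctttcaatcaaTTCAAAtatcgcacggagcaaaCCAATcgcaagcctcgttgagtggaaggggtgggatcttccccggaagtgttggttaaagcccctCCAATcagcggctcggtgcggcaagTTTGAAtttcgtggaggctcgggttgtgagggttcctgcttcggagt
ANLN: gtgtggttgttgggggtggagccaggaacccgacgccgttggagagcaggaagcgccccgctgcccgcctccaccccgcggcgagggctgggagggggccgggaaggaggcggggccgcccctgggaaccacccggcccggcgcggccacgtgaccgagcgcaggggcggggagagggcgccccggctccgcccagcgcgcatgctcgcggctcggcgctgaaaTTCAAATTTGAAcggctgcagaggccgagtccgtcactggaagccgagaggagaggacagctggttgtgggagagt

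In these 6 windows the CHR forms and CCAAT boxes differ in number and place. CCNB1, BUB1 and KIF20A have 1 CHR form and 2 CCAAT boxes, CDC25C has 1 of each, DLGAP5 has 3 CHR forms and 2 CCAAT boxes, and ANLN has 2 abutting CHR forms and no CCAAT. CDC25C has 4 windows, and the one printed was chosen for having a CHR form nearest the start. Another of its windows holds 3 CCAAT boxes and a CHR form 43 bases after the start. Of the 41 genes with a window, 38 (92.7%) held at least 1 of the 3 CHR forms, against 22.7% of the 12073 tested genes with one. On that same background the TTTGAA form alone was in 31 (75.6%), against 13.7%, CCAAT in 35 (85.4%), against 42.3%, and both a CHR form and CCAAT in 32 (78.0%), against 9.60%. Windows of 32 DNA replication and S phase genes held a CHR form in 5 of 32 (15.6%) and CCAAT in 19 of 32 (59.4%). Any of the E2F site forms TTTCCCGC, TTTGGCGC, TTTGCCGC and TTTCGCGC, on either strand, was in 3 of 41 mitotic genes (7.32%), against 18 of 32 S phase genes (56.2%) and 6.28% of the tested genes, so that the share in the mitotic genes was near the background.

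The matches lay close to the start. A CHR form began within 60 bases of the start in 35 of 41 genes (85.4%), against 7.94% of the tested genes with a promoter, and the median position over 68 matches was -29 bases, counted from the start. For CCAAT the median over 80 matches was -76.5 bases. Counted over windows, with all 35116 promoters of the table as background, the share was 87.5% against 25.1% for any CHR form, 70.8% against 15.2% for TTTGAA, 81.2% against 34.6% for CCAAT and 8.33% against 3.31% for the E2F forms, and a CHR form overlapped another motif in 2 of the 48 windows. A letter match is a description of the window and does not show that a factor was bound there.

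**Figure D1:**
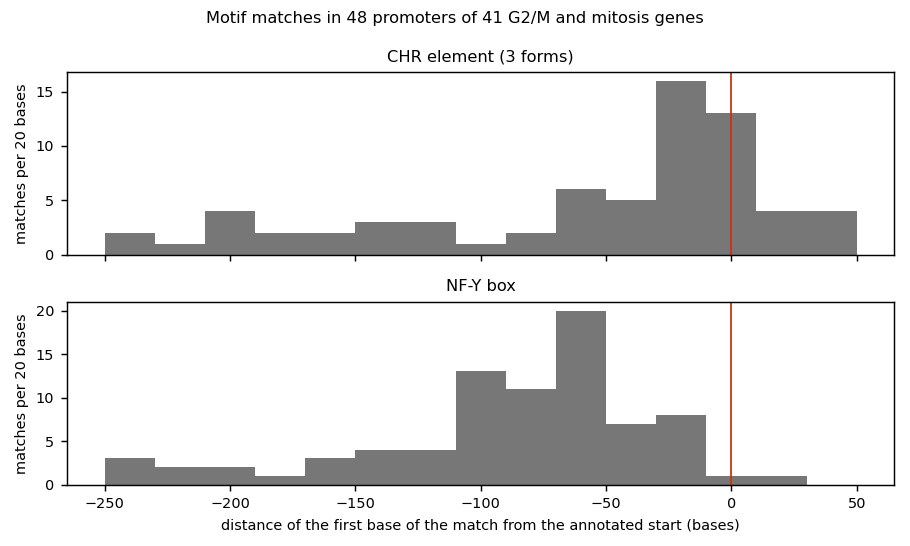
Matches to the 3 CHR forms and to the NF-Y box (CCAAT), counted in bins of 20 bases, by distance in bases from the annotated start in 48 RefSeq promoters of 41 G2/M and mitosis genes. CHR matches pile up around the start and CCAAT matches lie mostly further upstream, with medians of -29 and -76.5 bases.

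With caffeine, genes of every role rose in SW620 except that of transcription factor, which FOXM1 alone represents. The test was edgeR's quasi-likelihood F test with Benjamini-Hochberg adjustment over all 17671 genes tested, and a gene counts as changed at an adjusted p under 0.05. Of all genes tested 14.4% were called in SW620, 8.10% higher and 6.25% lower, and of the 48 genes 39 were higher and 0 lower. All 48 fold changes were above 0, the median log2 fold change was 0.66, and over all genes tested it was -0.01. No gene of the set was lower at an unadjusted p under 0.05 by edgeR, DESeq2 or limma-voom. The caffeine libraries lay above the control libraries without overlap for 46 genes, against 29.7% of all genes, and overlapped for BUB3 and PRC1. In bulk RNA, more cells in G2 and mitosis and more of these transcripts per cell cannot be told apart.

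All 5 genes of the cyclins and the CDK1 switch rose in SW620. CDC25C, the phosphatase that activates CDK1, had 23.9 and 20.2 CPM with caffeine and 8.70 and 8.67 CPM in control. CCNB1 had 254 and 242 CPM with caffeine and 169.8 and 166 CPM in control, and CDK1 itself 175 and 190.3 CPM against 133 and 140.3 CPM. For each gene both caffeine libraries were above both controls. The log2 fold change was 1.34 ± 0.15 (SE) for CDC25C (edgeR, adjusted p = 1.61e-05), the largest of the 48 among those called, 0.56 ± 0.12 for CCNB1 (adjusted p = 0.00485) and 0.42 ± 0.12 for CDK1 (adjusted p = 0.0298). CCNA2, the cyclin A gene that acts from S phase into early mitosis, rose by 0.67 and CCNB2, a further B-type cyclin, by 0.46. CDC25C kept its call without any 1 library, while CCNB2 and CDK1 lost theirs without any 1 SW620 library, CCNB1 without SW620 control replicate 1 or 2 and CCNA2 without SW620 control replicate 1 (adjusted p 0.0558 to 0.264).

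FOXM1, which activates many genes of this set, had 80.1 and 104 CPM with caffeine and 77.8 and 71.2 CPM in SW620 control. The groups did not overlap, and the log2 fold change of 0.30 ± 0.15 (SE) missed the threshold (edgeR, adjusted p = 0.185), and was called in a fit of SW620 alone (0.31, adjusted p = 0.0454). Among its partners, MYBL2, the B-MYB gene, stood at 66.6 and 73.7 CPM with caffeine against 72.3 and 65.8 CPM, with a log2 fold change of 0.02 (adjusted p = 0.942).

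All 4 genes of the mitotic kinase group rose in SW620. PLK1, the Polo-like kinase of mitotic entry and spindle assembly, had 139 and 148 CPM with caffeine and 87.8 and 97.6 CPM in control. AURKA, the centrosomal Aurora A kinase, had 82.3 and 81.1 CPM with caffeine and 49.95 and 51.9 CPM in control, and TPX2, its activator on the spindle, 219 and 227 CPM against 132 and 134 CPM. None of these groups overlapped. The log2 fold changes were 0.63 ± 0.12 (SE) for PLK1 (edgeR, adjusted p = 0.00205), 0.68 ± 0.12 for AURKA (adjusted p = 0.000988), 0.74 ± 0.11 for TPX2 (adjusted p = 0.000345) and 0.76 ± 0.13 for NEK2, a centrosome kinase (adjusted p = 0.000855). PLK1 lost its call without SW620 control replicate 1 (adjusted p = 0.069), and the other 3 kept theirs without any 1 library.

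The chromosomal passenger complex corrects faulty attachments and later acts at the cleavage site, and 3 of its 4 genes rose in SW620. Its scaffold INCENP had 56.9 and 72.0 CPM with caffeine and 40.1 and 37.2 CPM in control, with a log2 fold change of 0.74 ± 0.14 (SE; edgeR, adjusted p = 0.00253). AURKB, the Aurora B kinase of the complex, rose by 0.57 and CDCA8, the borealin gene, by 0.69. BIRC5, the survivin gene, had 121 and 125 CPM with caffeine and 88.7 and 106 CPM in control, which did not overlap, and its log2 fold change of 0.33 ± 0.15 was not called (adjusted p = 0.147). BIRC5 was called in a fit of SW620 alone (adjusted p = 0.0134) and without SW480 control replicate 1 (0.0481) or 2 (0.0475). Without SW620 caffeine replicate 2 or SW620 control replicate 2 INCENP had an adjusted p of 0.0548 and 0.0526, and AURKB lost its call without SW620 caffeine replicate 1, SW620 control replicate 1 or SW620 control replicate 2 (adjusted p 0.0827 to 0.101).

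Within the spindle checkpoint BUB1, TTK and BUB1B rose, and MAD2L1 and BUB3 did not pass the test. BUB1, a kinetochore kinase, had 85.5 and 93.6 CPM with caffeine and 44.9 and 48.3 CPM in SW620 control. TTK, the MPS1 kinase that starts the signal, had 60.0 and 66.8 CPM with caffeine and 36.5 and 38.6 CPM in control. Neither gene's groups overlapped. The log2 fold change was 0.94 ± 0.12 (SE) for BUB1 (edgeR, adjusted p = 6.36e-05), 0.75 ± 0.14 for TTK (adjusted p = 0.00138) and 0.57 ± 0.12 for BUB1B (adjusted p = 0.00462), which encodes the BUBR1 inhibitor of CDC20. MAD2L1, the MAD2 gene, had a log2 fold change of 0.15 ± 0.13 (adjusted p = 0.492) and BUB3, a WD-repeat adaptor, one of 0.08 ± 0.11 (adjusted p = 0.705), with BUB3 at 332 and 335 CPM with caffeine and 296 and 335 CPM in control. BUB1B lost its call without SW620 caffeine replicate 2, SW620 control replicate 1 or SW620 control replicate 2 (adjusted p 0.0535 to 0.0816).

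Of 7 centromere and kinetochore genes 6 rose in SW620. CENPA, the histone H3 variant that marks centromeres, had 30.7 and 28.5 CPM with caffeine and 18.4 and 17.5 CPM in control, without overlap, and a log2 fold change of 0.72 ± 0.15 (SE; edgeR, adjusted p = 0.00497). CENPE, the kinetochore motor, rose by 0.76, CENPF, a large protein of the outer kinetochore, by 0.56, and SGO1, the shugoshin that protects centromeric cohesin, by 0.58. In the NDC80 complex, which grips microtubules, NUF2 rose by 0.53 and NDC80 by 0.38, and SPC25 had 13.3 and 12.2 CPM with caffeine and 9.56 and 10.9 CPM in control, a log2 fold change of 0.32 ± 0.16 that was not called (adjusted p = 0.218). CENPE kept its call without any 1 library. CENPA lost its call without SW620 control replicate 2 (adjusted p = 0.0651), CENPF without SW620 caffeine replicate 2 or either SW620 control, and NDC80, NUF2 and SGO1 without any 1 SW620 library (adjusted p 0.0593 to 0.288). The call of NDC80 was lost too when low counts were not filtered (adjusted p = 0.0708), with the mitochondrial genes left out (0.0507) and with replicate number as a block (0.0775).

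Among the 8 kinesins, the motors that move chromosomes and organise the spindle, 7 rose in SW620. KIF20A, which carries the passenger complex to the midzone, had 86.4 and 85.8 CPM with caffeine and 44.7 and 43.4 CPM in control. KIF14, a cytokinesis motor, had 45.3 and 49.9 CPM with caffeine and 21.6 and 27.5 CPM in control. Both sets of libraries were separate. The log2 fold change was 0.97 ± 0.12 (SE) for KIF20A (edgeR, adjusted p = 7.31e-05), 0.96 ± 0.16 for KIF14 (adjusted p = 0.000769) and 0.76 ± 0.12 for KIF2C, a microtubule depolymerase (adjusted p = 0.000469). KIF18A, which dampens chromosome oscillation, and KIF23, the centralspindlin motor, rose by 0.66 each, KIF4A, a chromatin-bound motor, by 0.56, and KIF11, the motor that pushes spindle poles apart, by 0.44. KIF20B, a further late-mitotic motor, had a log2 fold change of 0.27 ± 0.14 (adjusted p = 0.239) and was called in a fit of SW620 alone (adjusted p = 0.0356). KIF11 and KIF4A lost their calls without SW620 caffeine replicate 2 or either SW620 control, KIF18A without SW620 control replicate 1 and KIF23 without SW620 control replicate 2 (adjusted p 0.0578 to 0.232).

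The spindle and cytokinesis group held some of the larger rises and also the genes that could not be measured well. ANLN, the contractile ring scaffold anillin, had 159 and 176 CPM with caffeine and 76.9 and 82.3 CPM in SW620 control. DLGAP5, a stabiliser of kinetochore microtubules, had 76.3 and 85.5 CPM with caffeine and 37.5 and 42.5 CPM in control, and HMMR, a spindle protein first known as a hyaluronan receptor, 72.7 and 79.1 CPM against 37.4 and 41.5 CPM. The caffeine values of all 3 were above every control value. In log2 fold change ANLN rose by 1.07 ± 0.12 (SE; edgeR, adjusted p = 1.79e-05), which is 2.10-fold, DLGAP5 by 1.01 ± 0.13 (adjusted p = 5.35e-05) and HMMR by 0.94 ± 0.14 (adjusted p = 0.000245). ASPM, a spindle pole protein, had 117 and 148 CPM with caffeine and 74.7 and 80.4 CPM in control and a log2 fold change of 0.77 ± 0.17 (adjusted p = 0.00669), and lost its call without SW620 caffeine replicate 2 (adjusted p = 0.0874) or SW620 control replicate 1 (0.0628). ECT2, the exchange factor that activates RhoA at the cell equator, had a log2 fold change of 0.22 ± 0.12 and was not called (adjusted p = 0.237).

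PRC1, which bundles midzone microtubules, and NUSAP1, a spindle microtubule binder, rested on few reads. PRC1 had 26 to 57 reads per library and NUSAP1 4 to 18, whereas no other gene of the set had fewer than 171 in any library. On GENCODE 29, 3181 of 5525 exon bases of PRC1 are shared on the same strand with AC068831.7, and 1787 of 2875 exon bases of NUSAP1 with AC087721.2, and reads in shared bases may have been left uncounted. Their log2 fold changes in SW620 were 0.07 ± 0.30 (SE) and 1.30 ± 0.60 (edgeR, adjusted p = 0.912 and 0.166). PRC1 turned to -0.21 without SW620 caffeine replicate 2 and to -0.12 without SW620 control replicate 2.

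The APC/C and anaphase group rose as a whole in SW620, 5 of 5. CDC20, the APC/C activator, had 171 and 166 CPM with caffeine and 89.8 and 84.4 CPM in control, with a log2 fold change of 0.95 ± 0.13 (SE; edgeR, adjusted p = 0.000102). UBE2C, the ubiquitin-conjugating enzyme of the APC/C, had 118 and 104 CPM with caffeine and 63.0 and 60.1 CPM in control, and a log2 fold change of 0.85 ± 0.14 (adjusted p = 0.000602). Both genes' libraries were separate. CDCA3, an APC/C substrate that promotes mitotic entry, rose by 0.86, PTTG1, the securin that holds separase inactive, by 0.74, and ESPL1, separase itself, by 0.60. CDC20, UBE2C and CDCA3 kept their calls without any 1 library. PTTG1 lost its call without SW620 control replicate 1 (adjusted p = 0.0549), and ESPL1 without SW620 caffeine replicate 2, SW620 control replicate 1 or SW620 control replicate 2 (0.0596 to 0.0882).

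TOP2A, the topoisomerase that untangles sister chromatids, had 510.5 and 559.6 CPM with caffeine and 357 and 371 CPM in SW620 control. MKI67, the Ki-67 proliferation antigen that coats mitotic chromosomes, had 298 and 300.2 CPM with caffeine and 192 and 189.6 CPM in control. Neither overlapped. The log2 fold change was 0.56 ± 0.12 (SE) for TOP2A (edgeR, adjusted p = 0.00414) and 0.65 ± 0.16 for MKI67 (adjusted p = 0.0124). Both lost their calls without SW620 caffeine replicate 2, SW620 control replicate 1 or SW620 control replicate 2 (adjusted p 0.0579 to 0.0943).

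**Figure D2:**
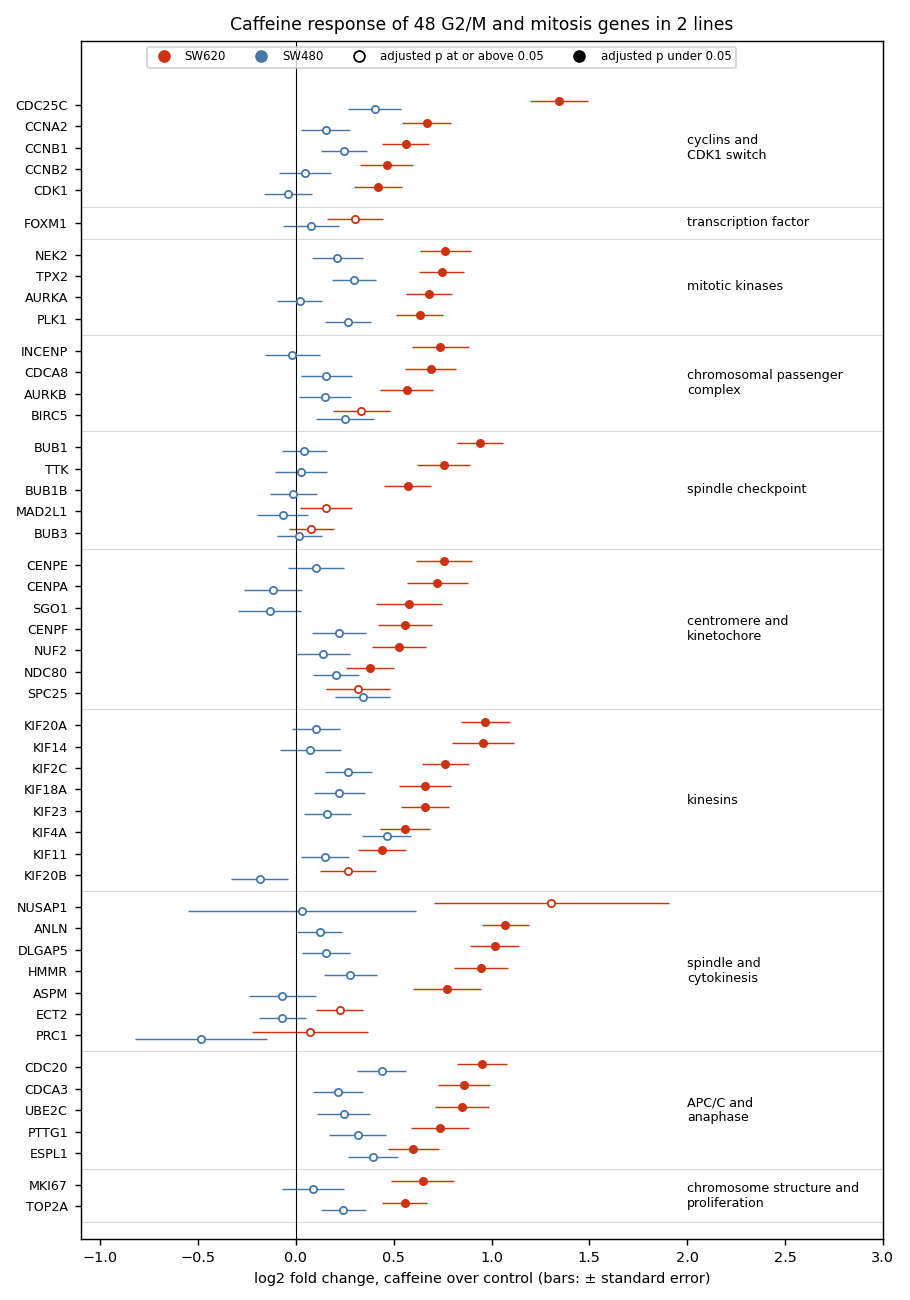
Log2 fold change of caffeine over control for the 48 genes, by role, with bars of ± 1 standard error, in SW620 (red) and SW480 (blue), and filled points where the edgeR adjusted p was under 0.05. All SW620 points lie above 0 and 39 are filled, while the SW480 points, none filled, lie between -0.49 and 0.46.

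The SW620 calls that held with 1 library left out, which leaves a single library in its group, can be counted. Of the 39 genes 33 kept their call without SW620 caffeine replicate 1, 25 without SW620 caffeine replicate 2, 20 without SW620 control replicate 1 and 22 without SW620 control replicate 2, and 17 kept it without any 1 of the 8 libraries. Those 17 were CDC25C, AURKA, NEK2, TPX2, CDCA8, BUB1, TTK, CENPE, KIF14, KIF20A, KIF2C, ANLN, HMMR, DLGAP5, CDC20, UBE2C and CDCA3. Over all genes the number of calls was 2537, and 1416, 1183, 882 and 801 without those 4 libraries in the same order.

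In SW480 most changes were smaller in size, and 0 of 48 passed edgeR's test in either direction. That count was near the background, where 3.60% of all genes were called (1.67% higher and 1.93% lower). The median log2 fold change was 0.15, against 0 over all genes tested. Of the 48 changes 38 were above 0, against 8784 of the 17671 genes tested. The range was from -0.49 for PRC1 to 0.46 for KIF4A. By role the median ran from 0.02 for the spindle checkpoint to 0.32 for the APC/C and anaphase genes. At an unadjusted p under 0.05, 9 genes were higher and 0 lower by edgeR, 6 and 0 by DESeq2 and 11 and 0 by limma-voom. After adjustment DESeq2 called 1 gene, KIF4A, and limma-voom 0. The caffeine libraries lay above the controls without overlap for 19 of the 48, against 21.5% of all genes, and overlapped for 29.

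The 4 genes of smallest p in SW480 were KIF4A, CDC20, ESPL1 and CDC25C. KIF4A had 161 and 202 CPM with caffeine and 132 and 131 CPM in SW480 control, a log2 fold change of 0.46 ± 0.13 (SE; edgeR, adjusted p = 0.0516). CDC20 had 248 and 275 CPM with caffeine and 171 and 215 CPM in control, a log2 fold change of 0.44 ± 0.13 (adjusted p = 0.0648). All 4 caffeine values of this pair were above the controls. ESPL1 stood at 118 and 139 CPM against 102 and 93.7 CPM (log2 fold change 0.39, adjusted p = 0.105), and CDC25C at 40.0 and 42.1 CPM against 29.6 and 32.6 CPM (0.40, adjusted p = 0.111), also without overlap. KIF4A was called without SW480 caffeine replicate 1 (adjusted p = 0.0144), CDC20 together with SPC25 and PTTG1 without SW480 control replicate 2 (0.0112 for CDC20), and both with no filter on low counts (0.0175 and 0.0266).

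Several genes that rose in SW620 had overlapping libraries in SW480. ANLN had 359.8 and 338 CPM with caffeine and 338 and 303 CPM in SW480 control, BUB1 218 and 201 CPM against 205 and 201 CPM, and KIF20A 130.2 and 113 CPM against 118 and 108 CPM. AURKA had 200.5 and 209.7 CPM with caffeine and 191 and 214 CPM in control, and CDK1 119 and 103 CPM against 107 and 120.4 CPM. The caffeine and control libraries overlapped for these 5 genes. FOXM1 stood at 202 and 161 CPM with caffeine against 179 and 165 CPM, and MKI67 at 554 and 399.8 CPM against 522 and 375 CPM, where the replicates of a group differed more than the groups did. PLK1 had 159.9 and 175 CPM with caffeine and 133 and 146 CPM in control, CCNB1 306 and 337 CPM against 248 and 294 CPM, and TOP2A 549 and 564 CPM against 484 and 456 CPM. These 3 did not overlap, with log2 fold changes of 0.27, 0.25 and 0.24 that were not called (edgeR, adjusted p 0.23 to 0.273).

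**Figure D3:**
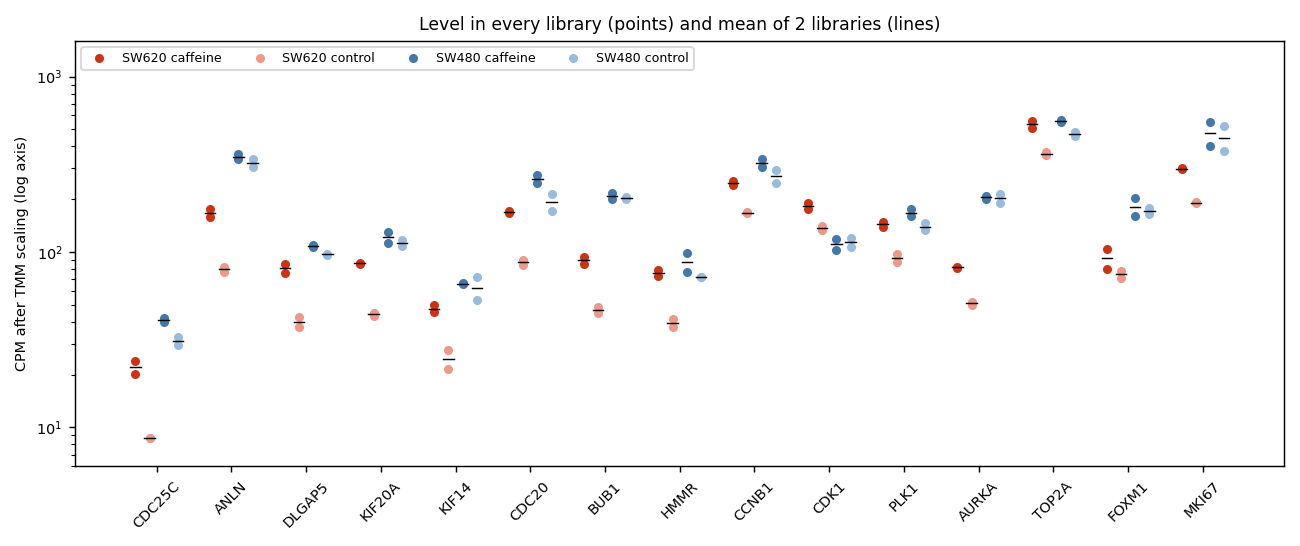
CPM of 15 of the genes in each of the 8 libraries, on a log axis, in the groups SW620 caffeine, SW620 control, SW480 caffeine and SW480 control. In SW620 the caffeine libraries lie above the controls, as for BUB1 at 85.5 and 93.6 against 44.9 and 48.3 CPM, while in SW480 they overlap the controls for ANLN, KIF20A, KIF14, BUB1, CDK1, AURKA, FOXM1 and MKI67.

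Whether the response differed between the lines was tested as the SW620 effect minus the SW480 effect. Of the 48 genes 13 had a larger response in SW620 and 0 a smaller one, where 6.71% of all genes were called (4.24% higher and 2.47% lower), and 47 of 48 differences were above 0 with a median of 0.51 on the log2 scale, against -0.03 over all genes tested. The 13 were CDC25C, AURKA, INCENP, BUB1, TTK, CENPA, KIF14, KIF20A, ANLN, ASPM, HMMR, DLGAP5 and CDCA3. The difference was 0.95 ± 0.17 (SE) for ANLN (edgeR, adjusted p = 0.00255), 0.94 ± 0.20 for CDC25C (adjusted p = 0.00917), 0.90 ± 0.17 for BUB1 (adjusted p = 0.00367), 0.86 ± 0.17 for KIF20A (adjusted p = 0.00685) and 0.86 ± 0.18 for DLGAP5 (adjusted p = 0.00753). It was 0.88 ± 0.22 for KIF14, 0.84 ± 0.21 for CENPA and 0.84 ± 0.24 for ASPM (adjusted p 0.0242 to 0.0474).

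For CENPA, KIF14 and ASPM the caffeine libraries lay above the controls in SW620 and overlapped them in SW480. In SW480 CENPA had 56.2 and 46.9 CPM with caffeine and 48.5 and 63.2 CPM in control, KIF14 66.1 and 65.3 CPM against 71.9 and 53.0 CPM, and ASPM 178 and 142 CPM against 201 and 135 CPM. The difference was 0.66 for AURKA and 0.32 for CCNB1, where the second missed the threshold (edgeR, adjusted p = 0.0221 and 0.283). For KIF4A it was 0.10 ± 0.18 (adjusted p = 0.806) and for SPC25 -0.02 ± 0.22 (adjusted p = 0.983), the only one below 0.

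Few of these differences held in every subset of the libraries. BUB1 and ANLN kept the call without any 1 library, and DLGAP5 lost it only without SW620 control replicate 1 (adjusted p = 0.0752) and KIF20A only without SW620 control replicate 2 (0.0523). CDC25C lost it without SW620 control replicate 1 (0.0532) or 2 (0.0581), AURKA without any 1 SW620 library (0.0627 to 0.141), and INCENP, TTK, CENPA, KIF14, ASPM, HMMR and CDCA3 without at least 4 of the 8 libraries each, SW620 control replicate 1 among them (0.0794 to 0.221 without that library). The number called was 9 without SW620 caffeine replicate 1, 5 without SW620 caffeine replicate 2, 3 without SW620 control replicate 1 and 4 without SW620 control replicate 2. It was 16, 6, 15 and 18 without the SW480 libraries in the same order. DESeq2 called 22 of the 48 and limma-voom 13, with 0 lower in both.

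In the controls SW620 held less of most of these transcripts than SW480. Of the 48 genes 37 were lower, 1 was higher and 10 were not called in SW620 control against SW480 control by edgeR, in a comparison where 65.6% of all genes were called, 33.0% higher and 32.6% lower. The median log2 fold change was -0.90, against 0.03 over all genes tested. The SW620 libraries lay below the SW480 libraries without overlap for 39 genes and above them for 3, where 40.6% and 42.8% of all genes did so.

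SPC25 had the largest gap, with 9.56 and 10.9 CPM in SW620 control and 44.7 and 58.4 CPM in SW480 control, a log2 fold change of -2.33 ± 0.16 (SE; edgeR, adjusted p = 9.42e-10). BUB1 had 44.9 and 48.3 CPM in SW620 control against 205 and 201 CPM (-2.12 ± 0.12, adjusted p = 1.12e-10), and ANLN 76.9 and 82.3 CPM against 338 and 303 CPM (-2.01 ± 0.12, adjusted p = 2.3e-10). AURKA, INCENP, CDC25C, TTK and TPX2 followed, with log2 fold changes of -1.99, -1.89, -1.84, -1.71 and -1.65. None of these 8, picked as the largest gaps, overlapped between the lines, where 40.6% of all genes lay lower in SW620 without overlap. INCENP had 40.1 and 37.2 CPM in SW620 control and 159 and 128 CPM in SW480 control, TTK 36.5 and 38.6 CPM against 122 and 124 CPM, and TPX2 132 and 134 CPM against 421 and 417 CPM.

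ECT2 was the gene that was higher in SW620, with 174 and 192 CPM in SW620 control and 118 and 109 CPM in SW480 control, a log2 fold change of 0.69 ± 0.12 (SE; edgeR, adjusted p = 9.1e-05). CDK1 had 133 and 140.3 CPM in SW620 control against 107 and 120.4 CPM, without overlap and not called (0.26 ± 0.12, adjusted p = 0.0709). The others not called were NEK2, BIRC5, BUB1B, BUB3, NUF2, KIF11, KIF20B, PRC1 and NUSAP1. The log2 fold change between the controls was -0.69 for CCNB1, -0.59 for PLK1, -0.37 for TOP2A, -1.23 for MKI67 and -1.21 for FOXM1. Of the 38 calls 34 held without any 1 library. CENPF lost its call without SW480 control replicate 1 (adjusted p = 0.0608), MAD2L1 without SW480 control replicate 2 (0.127) or SW620 control replicate 1 (0.108), TOP2A without SW620 control replicate 1 (0.0998) or 2 (0.0599) and CDCA8 without SW620 control replicate 2 (0.0607).

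With caffeine in both lines the median distance between them was smaller, and 39 of the 48 genes lay closer together and 9 further apart. The median over the 48 genes of log2 mean CPM in SW620 over SW480 was -0.36 with caffeine and -0.90 without, and 37 genes were below 0 with caffeine and 43 without. Of the 37 genes called lower in SW620 control the gap was smaller with caffeine in 36, SPC25 being the exception at -2.36 with caffeine and -2.33 without. CDC25C stood at -0.90 with caffeine and -1.84 without, ANLN at -1.06 and -2.01, BUB1 at -1.23 and -2.12, and AURKA at -1.33 and -1.99. For CDCA8 the gap was 0.08 with caffeine and -0.45 without. Of the 11 genes not called lower in SW620 control it was larger in size with caffeine in 8, namely CDK1 (0.72 with caffeine and 0.26 without), ECT2 (0.98 and 0.69), KIF20B (0.54 and 0.09), NEK2, BUB1B, BUB3, KIF11 and PRC1, and smaller in BIRC5, NUF2 and NUSAP1. The change in a gene's gap is its difference of the caffeine effects, given above, in another form, so these counts add no separate result. Genes called lower in SW620 control were picked on control libraries that also enter the gaps. The same counts over all genes are not given here. The gaps share libraries with the caffeine comparisons in each line and are given as a description.

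**Figure D4:**
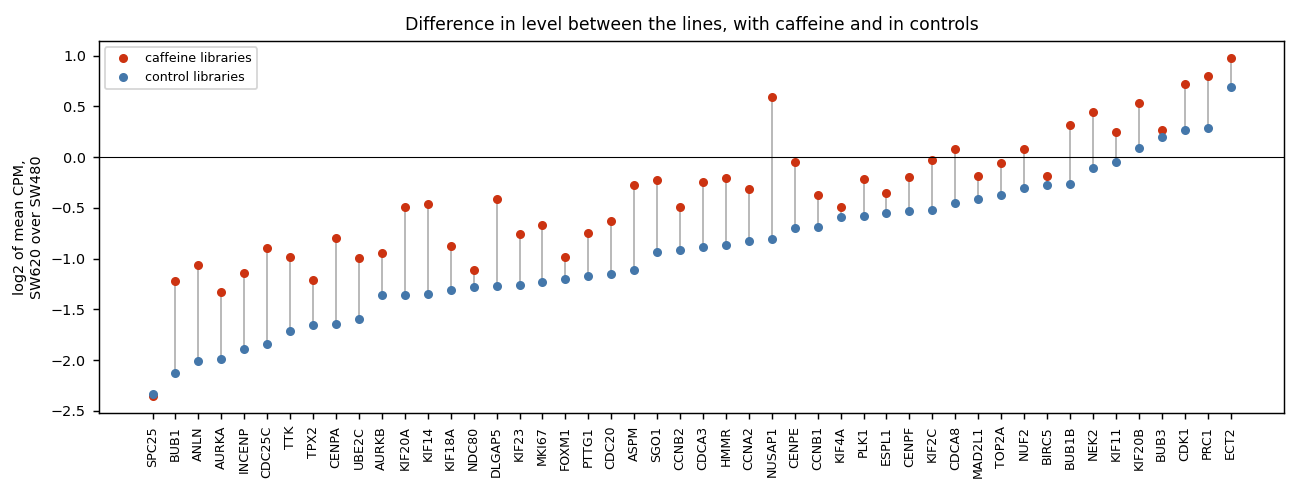
Log2 mean CPM in SW620 over SW480 for each of the 48 genes, with caffeine in both lines (red) and in both controls (blue). The red points lie nearer 0 than the blue points for 36 of the 37 genes called lower in SW620 control and further from 0 for 8 of the other 11, with medians over all 48 of -0.36 and -0.90. The distance from blue to red restates the difference of the caffeine effects.

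Summed over the 48 genes, the level was 5671 ± 199 CPM with caffeine and 3808 ± 114 CPM in control in SW620 (SD, n = 2 each), and 7544 ± 168 CPM with caffeine and 6747 ± 50.1 CPM in control in SW480. The ratio of caffeine to control was 1.49 in SW620 and 1.12 in SW480, and SW620 stood at 0.752 of SW480 with caffeine and at 0.564 without. A list of 36 DNA replication and S phase genes summed to 3338 ± 98.5 CPM with caffeine and 3905 ± 22.7 CPM in control in SW620, a ratio of 0.855, and to 5979 ± 475 CPM with caffeine and 5120 ± 382 CPM in control in SW480, a ratio of 1.17. The mitotic sum divided by the S phase sum was 1.69 and 1.71 in SW620 caffeine, 0.958 and 0.992 in SW620 control, 1.36 and 1.18 in SW480 caffeine and 1.40 and 1.25 in SW480 control. In SW620 the caffeine and control libraries were apart on this ratio, and in SW480 they overlapped.

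**Figure D5:**
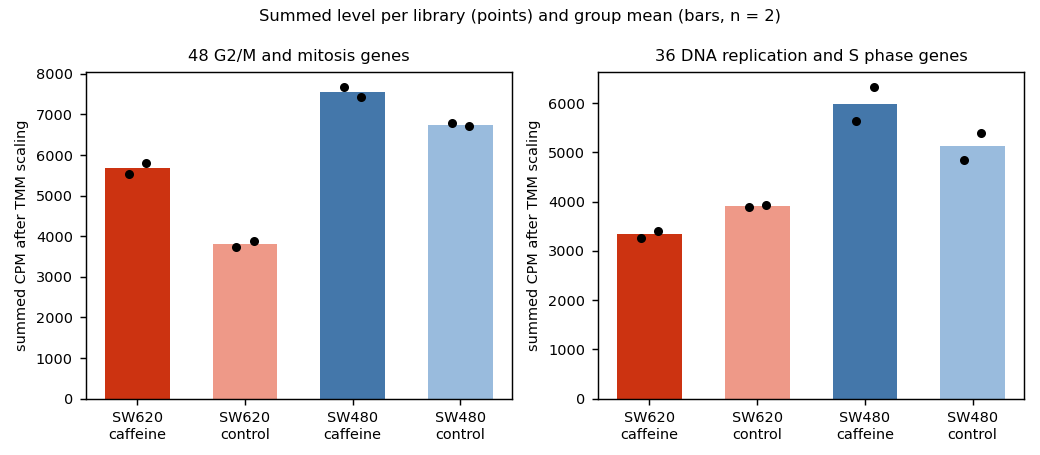
Summed CPM of the 48 G2/M and mitosis genes and of 36 DNA replication and S phase genes in each group (bars are means of 2 libraries, points are libraries). In SW620 the mitotic sum was 5671 CPM with caffeine and 3808 CPM in control, and the S phase sum 3338 and 3905 CPM.

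Divided by exon length the levels can be ranked between genes. CCNB1 led in SW620, at 96.9 ± 3.18 RPKM (CPM per kilobase of exon) with caffeine and 65.6 ± 1.09 RPKM in control (SD, n = 2 each). With caffeine in SW620 the 1 SD range of UBE2C, at 86.3 ± 7.64 RPKM, overlapped that of CCNB1. In SW480 control UBE2C led at 145 ± 28.3 RPKM, with 172 ± 9.7 RPKM under caffeine. TPX2 had 61.9 ± 1.43 RPKM with caffeine and 36.9 ± 0.399 RPKM in control in SW620, and 143 ± 9.48 RPKM with caffeine and 116 ± 0.812 RPKM in control in SW480. In SW480 control UBE2C, TPX2 and CCNB1, the last at 106 ± 12.9 RPKM, had overlapping ranges of 1 SD. Apart from PRC1 and NUSAP1, SGO1 and CDC25C were lowest in SW620 control, at 2.41 ± 0.216 and 2.60 ± 0.00717 RPKM, and CDC25C reached 6.62 ± 0.783 RPKM with caffeine.

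Other genes of the mitotic machinery were counted by role in SW620, where 8.10% of all genes tested were higher and 6.25% lower. Of 13 mitotic entry genes 3 rose and 0 fell (median log2 fold change 0.20), of 17 APC/C genes 1 rose and 1 fell (0.05), near those shares, of 26 further kinetochore and centromere genes 4 rose and 0 fell (0.22), of 18 condensin and cohesin genes 5 rose and 0 fell (0.22), of 15 further spindle genes 7 rose and 0 fell (0.36) and of 8 further cytokinesis genes 5 rose and 0 fell (0.58). Of 8 further checkpoint genes 0 changed (median 0.11), with 0 at an unadjusted p under 0.05 by edgeR and 0 adjusted calls by DESeq2 or limma-voom. HJURP, the chaperone that places CENPA at centromeres, had 87.7 and 90.3 CPM with caffeine and 42.9 and 41.2 CPM in control, a log2 fold change of 1.08 ± 0.12 (SE; edgeR, adjusted p = 1.93e-05). SGO2, a shugoshin, rose by 0.98, CEP55, which directs abscission, by 0.90, CCNF, the cyclin F gene, by 0.88, CENPI, a kinetochore subunit, by 0.85, NCAPG, a condensin subunit, by 0.78, SPAG5, the astrin gene, by 0.73 and RACGAP1, the partner of KIF23 in centralspindlin, by 0.67. These 8 kept their calls without any 1 library.

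The rest of those calls were less stable. GTSE1, BORA, FZR1, KNL1, SKA1, NCAPD2, NCAPG2, SMC4, KIFC1, CKAP2L, CKAP2, CIT, SHCBP1, ARHGAP11A, CKAP5, KIF18B and KIF22, the last 3 named after their values were seen, rose by 0.41 to 0.70, and ANAPC13, an APC/C subunit, had a log2 fold change of -0.57, and each lost its call without at least 1 of the 4 SW620 libraries (highest adjusted p per gene 0.0703 to 0.42).

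Genes that act before mitosis went both ways in SW620. Of 36 DNA replication and S phase genes 2 rose and 6 fell (median log2 fold change -0.19), where 8.10% of all genes tested rose and 6.25% fell, so that the 2 of 36 that rose were near the background. PCNA, the sliding clamp of DNA polymerases, had 186 and 168 CPM with caffeine and 316 and 334 CPM in control, a log2 fold change of -0.88 ± 0.13 (SE; edgeR, adjusted p = 0.000207). FEN1, GINS2, GINS3 and MCM6, which act at replication forks, fell by 0.56 to 0.64 on the log2 scale. ORC6, TK1 and RRM2 were named after their values were seen: ORC6 fell by 0.53, and TK1 and RRM2, both of nucleotide supply, rose by 0.65 and 0.52. Of 22 transcription regulators 0 rose and 2 fell (median -0.05), the falls near the background: E2F1 had 35.6 and 34.9 CPM with caffeine and 59.2 and 57.3 CPM in control (-0.72 ± 0.16, adjusted p = 0.00516), and its dimer partner TFDP1 143 and 165 CPM against 246 and 247 CPM (-0.68 ± 0.12, adjusted p = 0.00143). Of 14 G1 cyclins and CDK inhibitors 3 rose, CDKN2B (0.73), CDKN1A (0.71) and CDKN2D (0.66), and CCND2 fell by 0.84. PCNA, TFDP1 and CDKN2B kept their calls without any 1 library. E2F1 lost its call without SW620 control replicate 1 (adjusted p = 0.0519), and the other genes of this paragraph lost theirs without 2 or 3 of the SW620 libraries (highest adjusted p per gene 0.0651 to 0.39).

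In SW480 1.67% of all genes tested were higher with caffeine and 1.93% lower, and 0 of the 48 genes were called, near those shares. In the same further lists, of 13 genes listed under mitotic entry 3 rose, LMNB1 (log2 fold change 0.54), the lamin B1 gene, GTSE1 (0.51) and CCNF (0.50). Of 18 condensin and cohesin genes 1 rose, NCAPH2 (0.58), and of 36 S phase genes 4, TYMS (0.65), GINS2 (0.66), RRM2 (0.50) and LIG1 (0.51). None fell in these lists, and in the other lists 0 genes were called by edgeR in either direction. The median log2 fold change of the S phase list in SW480 was 0.24, with 33 of 36 above 0. All 8 lost their calls without SW480 caffeine replicate 2, the library with the low mitochondrial share, and without SW480 control replicate 1 (edgeR, highest adjusted p per gene 0.175 to 0.494). CCNF and LIG1 also lost theirs without any 1 SW620 library, and GTSE1, LMNB1, NCAPH2 and RRM2 without either SW620 control.

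Reads could be confused with those of related loci for a few of the 48. Named pseudogenes or retrocopies exist for 12 of them, and CDC20P1, with 223 reads against 26458 for CDC20 over all libraries, had the most. Exon bases are shared on the same strand with another gene for 4 and on the opposite strand for 16, and the strand setting of the counting was not given in the sources used here.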

How the data were processed

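Messenger RNA of 8 libraries (RNA integrity number at least 8, directional poly-A kit, 75 bp single-end reads) was sequenced, per the labels. The authors deposited raw read counts per Ensembl gene, made with Trim Galore, STAR 2.7.3a and featureCounts 2.0.5 on hg38, per the submitters' processing notes; annotation release and strand setting are not given in the sources used here. The 12 assignment totals of each file were left out, and 62625 of 62649 IDs matched a symbol.

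Counts were tested in edgeR 4.0.16 (R 4.3.3; filterByExpr, TMM, robust quasi-likelihood fit, 1 mean for each of 4 groups, 17671 genes, Benjamini-Hochberg threshold 0.05; biological coefficient of variation 10.5%). The script was tested on simulated data with the same spread in every group, unlike these libraries, which checks the code alone. Levels are CPM after TMM scaling, and RPKM used GENCODE 29 exon lengths. Alternatives used DESeq2 1.42.0, limma-voom (limma 3.58.1), other filters, scalings and fits, and each library left out.

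The genes, lists, tests and alternatives were chosen with earlier results of these data known. Given by library are the 8 largest called changes per direction and comparison (in SW480 the 4 smallest p) and CCNB1, CDK1, PLK1, AURKA, TOP2A, FOXM1 and MKI67, and of other lists at most 4 called genes, or all where 5 or fewer were called.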

Additional observations from a re-analysis of the deposited data

Results flagged for a closer look

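The caffeine response differed between the lines, by edgeR's test of the SW620 effect minus the SW480 effect (all adjusted p under 0.05 over 17671 genes), for 13 of the 48 G2/M and mitosis genes and for 12 of the 177 genes of the other lists (6.78%), near the 6.71% called among all genes. On the log2 scale the differences were 0.95 for ANLN, 0.94 for CDC25C, 0.90 for BUB1, 0.88 for KIF14, 0.86 for KIF20A and for DLGAP5, 0.84 for CENPA and for ASPM, 0.76 for INCENP, 0.73 for TTK, 0.67 for HMMR, 0.66 for AURKA and 0.64 for CDCA3. In the other lists they were above 0 for SGO2 (0.93), CDKN2B (0.86), CEP55 (0.84) and HJURP (0.75). They were below 0 for GINS2 (-1.28), FEN1 (-1.05), E2F1 (-1.0), PCNA (-0.96), TFDP1 (-0.82), LMNB1 (-0.72), MCM6 (-0.71) and TYMS (-0.71). Of the 36 DNA replication and S phase genes 5 were called below 0 and 0 above (median -0.45). Of all genes 2.47% were called below 0 and 4.24% above. BUB1, ANLN, GINS2, PCNA and FEN1 kept these calls without any 1 library, and the other 20 lost them without at least 1.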

How the results depend on the processing

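With 2 libraries a group, leaving 1 out left a single library in its group, and many calls changed. The median log2 fold change of the 48 genes in SW620 ran from 0.596 to 0.687 in those fits, against 0.66 with all libraries. Counts of the 48 genes called higher ran from 20 to 40 in SW620, from 0 to 3 in SW480 and from 3 to 18 for the difference of the effects when 1 library was left out. Over all genes the calls ran from 801 to 3245 in SW620 (2537 with all libraries), from 56 to 1421 in SW480 (636) and from 451 to 2188 for the difference (1185). In SW480, 2 of the 48 were higher with no filter on low counts (1073 genes in all) and 1 by DESeq2, and DESeq2 called 22 differences in place of 13. Between the controls 35 to 39 of the 48 were lower in SW620 under every alternative run. A fit of SW620 alone called 4617 genes and 42 of the 48, gaining FOXM1 (adjusted p = 0.0454), BIRC5 (0.0134) and KIF20B (0.0356). With 1 library left out the sign turned for 21 of the 48 genes in SW480, 1 in SW620, 4 for the difference of the effects and 3 between the controls. Those in SW480 include AURKA (-0.001 with DESeq2 size factors or test, and -0.060 to 0.087 with a library left out), FOXM1 (-0.097 to 0.216), MKI67 (-0.167 to 0.345) and CDK1 (-0.149 to 0.045), and the one in SW620 was PRC1 (-0.208 to 0.306). With replicate number as a block, 38 of the 48 were higher in SW620, 0 in SW480, and 11 differed between the effects, and over all genes 2249, 590 and 1087 were called. Same-numbered libraries shared little (correlation of deviations 0.0134 in SW620 and 0.0265 in SW480), so the block pairs nothing known. The cause of these shifts was not tested.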
